A study of Mus musculus with 8 samples.

Results

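Phospholipid remodelling acyltransferases are enzymes that attach a fatty acid to a lysophospholipid or lysophosphatidic acid. They were followed here as 10 genes, chosen by symbol: Lpcat1, Lpcat2, Lpcat3, Lpcat4, Mboat1, Mboat2, Mboat7, Agpat3, Agpat5 and Lpgat1. All 10 were found among the 41730 entries of the count table, and 8 of them had enough counts to be tested, among 12162 genes tested in all. The libraries hold RNA of OT-I CD8+ cells, mouse cells with a transgenic T cell receptor for an ovalbumin peptide, purified by flow sorting. Their partners in culture were bone marrow-derived dendritic cells presenting this peptide. The RGX-104 group (4 libraries, replicates 5 to 8) came from co-cultures with 2 µM of RGX-104, which activates the liver X receptors (LXR) as a synthetic ligand, and the DMSO group (4 libraries, replicates 1 to 4) from co-cultures with the solvent. The agonist was present while both cell types were together, and the labels give neither the age nor the sex of the mice, nor whether libraries came from separate cultures or animals. All p-values therefore rest on the spread among these samples alone, part or all of which may be technical.

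In the remodelling pathway known as the Lands cycle, a phospholipase removes a fatty acid from a membrane phospholipid and an acyltransferase puts another one in its place, which sets how saturated the membrane is. The enzymes belong to 2 protein families: the membrane-bound O-acyltransferases (MBOAT; Lpcat3, Mboat1, Mboat2 and Mboat7) and the AGPAT family (Lpcat1, Lpcat2, Lpcat4, Agpat3, Agpat5 and Lpgat1). Lpcat3, which loads polyunsaturated fatty acids such as arachidonate onto phosphatidylcholine and phosphatidylethanolamine, is a known LXR target in mouse liver, intestine and macrophages.

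Lpcat3 rose with RGX-104, by 0.47 ± 0.08 on the log2 scale (± SE), and it was the only 1 of the 8 tested members to pass the test, at an adjusted p under 0.05 with edgeR's quasi-likelihood test. None of the other 7 passed in either direction, although an unadjusted p under 0.05 was reached by 3 members, Lpcat3, Agpat3 and Lpgat1, all higher. Of all genes tested, 2.66% passed, with 0.888% higher and 1.78% lower, and 13.8% had an unadjusted p under 0.05. DESeq2 called Lpcat3 and Agpat3, against 4.61% of the genes it tested, and limma-voom called Lpcat3, against 2.66%. Of the tested members, 7 of 8 had a log2 fold change above 0, with a median of 0.11; of all genes tested 50.6% lay above 0, with a median of 0.0028.

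Total counts per library ranged from 13144704 to 15966972. CD8 T cell markers were abundant: the 9 genes found of a list of 10 summed to 2050 to 2133 CPM (read counts scaled to a common library size, with TMM factors) in RGX-104 libraries, against 1715 to 1751 CPM in DMSO libraries. Cd8a, Cd8b1, Lat and Thy1 of that list rose, and the part of this in the values below was not tested. Macrophage and monocyte markers, 12 of 12 found, summed to 59.2 to 66.7 CPM in RGX-104 libraries, against 53.7 to 61.6 CPM in DMSO libraries, and dendritic cell markers to 514 to 616 CPM in RGX-104 libraries, against 520.0 to 578 CPM in DMSO libraries, most of it Ccr7, which T cells also express. No gene of either list passed the test. Every library has a 0 for the dendritic cell genes H2-Eb1, H2-Ab1 and H2-Aa. Their symbols are repeated in the table, so these say nothing of expression. Xcr1 was at 0.0877 CPM in RGX-104 and 0 CPM in DMSO libraries, and Clec9a at 0.0381 CPM in RGX-104 and 0.0473 CPM in DMSO libraries. Others of the list were higher, in RGX-104 against DMSO libraries: Cst3 (68.9 against 68.0 CPM), Cd74 (5.58 against 6.52 CPM) and Zbtb46 (3.94 against 5.16 CPM). Fscn1 (2.37 against 4.23 CPM) and Ccl22 (1.61 against 3.66 CPM) were also counted. How much dendritic cell RNA the libraries held was not tested. Neutrophil markers, 6 of 6 found, summed to 6.03 to 8.41 CPM in RGX-104 libraries, against 8.14 to 9.14 CPM in DMSO libraries, most of it S100a8 and S100a9; Mpo is listed at 0, with its symbol repeated too. B cell markers summed to 0.982 to 1.599 CPM in RGX-104 libraries, against 0.925 to 2.35 CPM in DMSO libraries, with Cd79a at 0 in all libraries and Cd79b at 0.896 CPM in RGX-104 and 0.909 CPM in DMSO libraries. Erythroid and platelet markers summed to 78.1 to 97.3 CPM in RGX-104 libraries, against 89.2 to 93.3 CPM in DMSO libraries, most of it Hbb-bs and Hba-a1. NK cell markers summed to 264 to 299 CPM in RGX-104 libraries, against 233 to 279 CPM in DMSO libraries, most of it Nkg7. In bulk RNA, fewer cells of a type and less RNA per cell cannot be told apart.

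The promoter of Lpcat3 is shown because Lpcat3 is the member that rose, with those of Agpat3, the member with the next largest fold change, and Lpcat1, whose fold change was near 0. Each runs from 250 bases before to 50 bases after a start site (RefSeq, GRCm38.p6), and capitals mark the motifs CCAAT and GGGCGG on either strand, the core letters bound by the factors NF-Y and Sp1.
Lpcat3, chr6:124662854-124663153, plus strand: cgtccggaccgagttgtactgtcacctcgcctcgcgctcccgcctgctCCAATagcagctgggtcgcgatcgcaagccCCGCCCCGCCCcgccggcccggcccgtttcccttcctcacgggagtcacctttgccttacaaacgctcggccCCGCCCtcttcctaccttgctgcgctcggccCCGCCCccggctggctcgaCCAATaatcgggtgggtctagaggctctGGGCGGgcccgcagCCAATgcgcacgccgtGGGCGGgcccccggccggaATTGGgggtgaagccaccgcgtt
Agpat3, chr10:78351651-78351950, minus strand: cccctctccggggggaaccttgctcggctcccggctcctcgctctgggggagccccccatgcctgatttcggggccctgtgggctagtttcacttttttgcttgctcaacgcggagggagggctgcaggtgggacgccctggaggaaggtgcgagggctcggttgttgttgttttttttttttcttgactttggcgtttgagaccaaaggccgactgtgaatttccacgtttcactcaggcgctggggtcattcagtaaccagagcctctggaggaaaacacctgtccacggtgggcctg
Lpcat1, chr13:73466981-73467280, plus strand: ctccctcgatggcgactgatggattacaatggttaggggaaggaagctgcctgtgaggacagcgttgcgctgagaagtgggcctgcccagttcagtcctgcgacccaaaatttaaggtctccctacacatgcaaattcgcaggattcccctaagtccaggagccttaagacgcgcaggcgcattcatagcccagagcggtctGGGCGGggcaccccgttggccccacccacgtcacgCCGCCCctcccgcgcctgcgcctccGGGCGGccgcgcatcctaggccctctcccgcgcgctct
CCAAT occurred 4 times in the Lpcat3 window and was found in neither of the other windows shown, and GGGCGG occurred 6 times in Lpcat3, partly overlapping itself, 3 times in Lpcat1 and 0 times in Agpat3. The Agpat3 window lies inside the gene, whose upstream end in GENCODE M21 is at 78352489. The windows of Lpcat3 and Lpcat1 include the annotated gene start, so the Agpat3 window is not a like one. Of 32851 mouse promoter entries of this length, 37.4% held CCAAT and 35.7% held GGGCGG. The table held 10 promoter entries for 9 of the members, and CCAAT was in 4 and GGGCGG in 9 of these entries. Their GC content ran from 54.7% (Lpcat2) to 79.7% (Lpgat1), against a median of 52.7% over all entries, and GGGCGG holds only G and C. The consensus DR4 element, the direct repeat of AGGTCA that LXR binds together with its partner RXR, was in none of the 10 entries, nor was a single AGGTCA on either strand. Of all entries, 0.0152% held the full repeat and 16.3% a single AGGTCA. These counts describe the letters of short windows and show no binding site.

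Of the MBOAT enzymes, Lpcat3 (chromosome 6, 124663027 to 124704418, GENCODE M21 on GRCm38) was at 118, 125, 126 and 123 CPM in RGX-104 replicates 5 to 8, against 88.2, 85.6, 78.4 and 102 CPM in DMSO replicates 1 to 4. Every RGX-104 library lay above every DMSO library, and the 4 RGX-104 libraries lay close together, while DMSO replicate 4 was the highest control. Means were 123 ± 3.69 CPM in RGX-104 and 88.5 ± 9.82 CPM in DMSO libraries (SD, n = 4 each), a 1.39-fold difference with a 95% interval of 1.25 to 1.55 (edgeR adjusted p = 0.000479). By its p it stood at rank 68 of the 12162 genes, and 11.2% of these genes had a fold change of larger size.

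**Figure D1:**
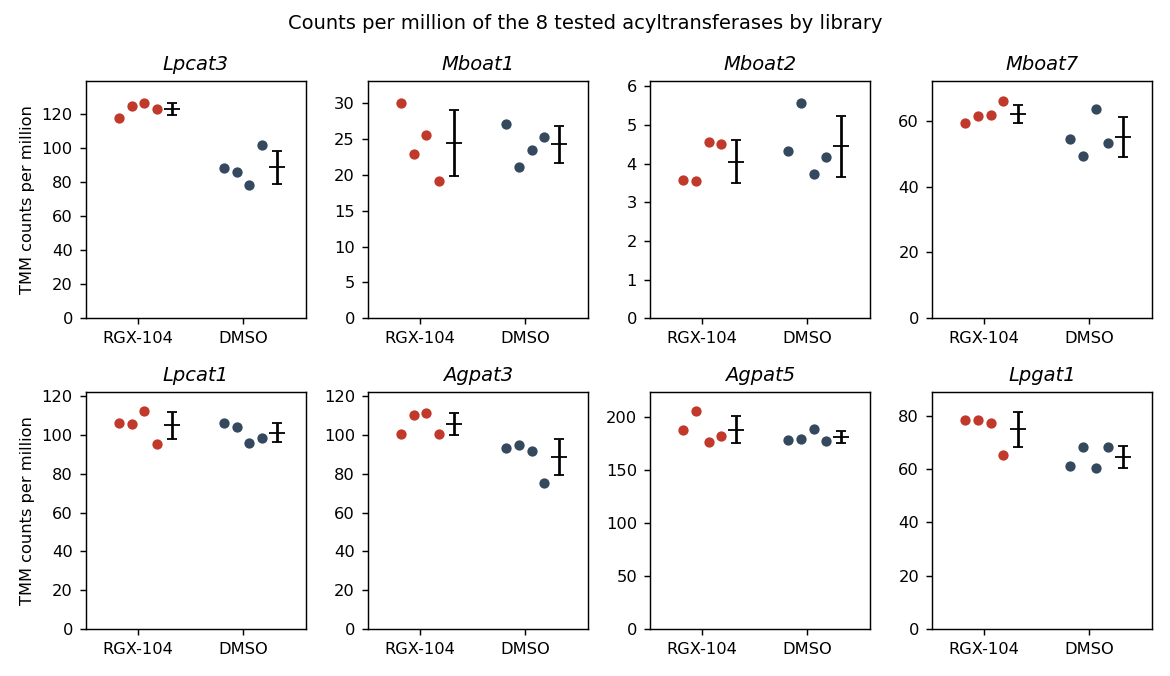
TMM-scaled CPM of the 8 tested acyltransferases, with RGX-104 libraries left of DMSO libraries in each panel. Points are libraries and bars show the mean ± SD (n = 4); the Lpcat3 and Agpat3 panels are those in which the groups share no range, with Lpcat3 at 118 to 126 CPM in RGX-104 and 78.4 to 102 CPM in DMSO libraries.

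Mboat7, which places arachidonate on phosphatidylinositol, was at 59.5, 61.4, 61.9 and 66.0 CPM in RGX-104 libraries, against 54.6, 49.4, 63.5 and 53.2 CPM in DMSO libraries. DMSO replicate 3 lay among the RGX-104 values, so the groups overlapped (log2 fold change 0.17 ± 0.09, adjusted p = 0.407). Mboat1, an acyltransferase of lysophosphatidylethanolamine and lysophosphatidylserine, was at 30.1, 22.9, 25.6 and 19.1 CPM in RGX-104 libraries, against 27.1, 21.0, 23.5 and 25.3 CPM in DMSO libraries. RGX-104 replicates 5 and 8 held its highest and its lowest value, and its log2 fold change of 0.01 ± 0.14 had a 95% interval of -0.28 to 0.31. Mboat2, which transfers oleate to lysophosphatidylethanolamine and lysophosphatidylcholine, was counted 51 to 68 times in each RGX-104 library and 59 to 83 times in each DMSO library. At that depth its log2 fold change of -0.14 ± 0.27 had a 95% interval of -0.70 to 0.43, which includes a fall as large as the rise of Lpcat3 and ends just below a rise of that size. Without DMSO replicate 2, which held its highest value, it was -0.0094, and without DMSO replicate 3 it was -0.21.

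Of the AGPAT family, Agpat3, an acyltransferase of lysophosphatidic acid (chromosome 10, 78269178 to 78352489), was at 101, 110.1, 111 and 101 CPM in RGX-104 libraries, against 93.4, 94.8, 91.5 and 75.1 CPM in DMSO libraries. The groups did not overlap, but the lowest DMSO value, in replicate 4, stood well below the other three. Its log2 fold change of 0.25 ± 0.08 did not pass the test (adjusted p = 0.105), and DESeq2 put it just under the threshold (adjusted p = 0.0486). Lpcat3 and Agpat3 were the 2 of 8 tested members with every RGX-104 library above every DMSO library, a pattern that 3.88% of all genes tested showed. None lay below in every library, as 4.32% of all genes tested did. Lpgat1, first described as an acyltransferase of lysophosphatidylglycerol, was at 78.6, 78.6, 77.2 and 65.2 CPM in RGX-104 libraries, against 61.2, 68.4, 60.6 and 68.1 CPM in DMSO libraries. Only RGX-104 replicate 8 lay within the DMSO range (log2 fold change 0.22 ± 0.08, adjusted p = 0.231).

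Lpcat1, which makes dipalmitoyl phosphatidylcholine for lung surfactant, was at 106, 106, 112 and 95.2 CPM in RGX-104 libraries, against 106, 104, 95.8 and 98.5 CPM in DMSO libraries. The groups overlapped almost fully, and the log2 fold change of 0.05 ± 0.07 had a 95% interval of -0.09 to 0.20 (adjusted p = 0.805), and leaving out RGX-104 replicate 7 gave 0.019, leaving out RGX-104 replicate 8 gave 0.098. Agpat5, an acyltransferase of lysophosphatidic acid found on mitochondria, was at 188, 206, 177 and 182 CPM in RGX-104 libraries, against 178, 179.9, 189 and 177 CPM in DMSO libraries. Its log2 fold change was 0.06 ± 0.06 with a 95% interval of -0.07 to 0.18 (adjusted p = 0.747), and it was 0.011 without RGX-104 replicate 6, which held the highest value, and 0.085 without RGX-104 replicate 7.

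Lpcat2 and Lpcat4 had too few counts for the test. Lpcat2, which makes platelet-activating factor in macrophages, had 0, 4, 1 and 0 counts in RGX-104 libraries, against 3, 5, 1 and 1 counts in DMSO libraries. Lpcat4, which acylates lysophosphatidylethanolamine in brain, had 2, 15, 6 and 4 counts in RGX-104 libraries, against 1, 0, 16 and 37 counts in DMSO libraries. RGX-104 replicates 5 and 8 had no read of Lpcat2, and a count of 0 allows up to 3 counts, or 0.2104 CPM in replicate 5 and 0.229 CPM in replicate 8, by counting error only. For Lpcat4, 1 library, DMSO replicate 4, held 37 of the 54 DMSO counts. Without the filter on low counts, edgeR gave both an adjusted p far above the threshold (0.843 for Lpcat2 and 0.690 for Lpcat4).

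**Figure D2:**
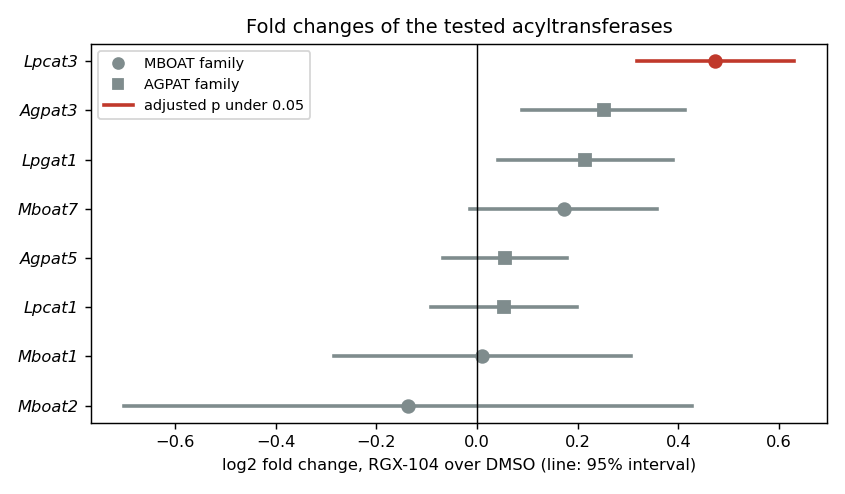
Log2 fold changes of the 8 tested members, RGX-104 over DMSO, with 95% intervals from edgeR; circles are MBOAT and squares AGPAT enzymes. Lpcat3 is the member in red (adjusted p = 0.000479), and the intervals of Mboat7, Agpat5, Lpcat1, Mboat1 and Mboat2 include 0.

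The tested members differed in the spread that edgeR's model gave them. Its biological coefficient of variation, an estimate drawn toward that of genes of similar abundance, is meant as the spread beyond counting noise. It was 6.04% for Agpat5, 6.80% for Lpcat1 and 7.34% for Lpcat3, and reached 13.4% for Mboat1 and 24.1% for Mboat2. For Mboat2 the SD of CPM was only 13.8% of the mean in RGX-104 and 17.9% in DMSO libraries, so its estimate exceeds the spread seen. Summed over the 10 genes, reads came to 656 to 714 CPM in RGX-104 libraries, against 606 to 613 CPM in DMSO libraries. Of the difference of 78.8 CPM between the group means, Lpcat3 made up 43.6%, Agpat3 21.4% and Lpgat1 13.1%. Lpcat3 took 17.2, 17.5, 18.1 and 18.7% of the reads of the 10 genes in RGX-104 replicates 5 to 8, against 14.4, 14.0, 12.9 and 16.8% in DMSO replicates 1 to 4.

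Whether the change of Lpcat3 differed from that of its relatives was tested on the ratio of its counts to those of each of the 7 other tested members, which needs no scaling of libraries. With 4 libraries in each group, an exact two-sided permutation test cannot go below p = 0.0286. That value was reached against 4 relatives, Mboat2, Lpcat1, Agpat5 and Lpgat1, where every RGX-104 library lay above every DMSO library. Lpcat3 by itself showed that pattern, so its ratio to a gene of little change tends to show it too. The share of all genes tested with such a ratio was not computed, so the count says little about these relatives. Adjusted over the 7 pairs (Benjamini-Hochberg), these 4 came to exactly 0.05 in the permutation test and so did not pass under 0.05, and no pair passed. With this smallest p, a pair can pass only when more than 4 of the 7 pairs reach it. A fully separated pair could thus not pass by itself, and the adjusted test cannot decide on single pairs.

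Lpcat3 over Lpcat1 was 1.11, 1.18, 1.12 and 1.29 in RGX-104 libraries, against 0.831, 0.820, 0.819 and 1.03 in DMSO libraries, a difference of 0.43 on the log2 scale. The difference was 0.61 against Mboat2, 0.42 against Agpat5 and 0.27 against Lpgat1. Against Mboat1 it was 0.48 (exact permutation p = 0.0857, adjusted 0.1), with RGX-104 replicate 5 within the DMSO range. It was 0.30 against Mboat7 (exact permutation p = 0.0571, adjusted 0.08), 0.18 without DMSO replicate 3 and 0.39 without DMSO replicate 4. Against Agpat3 it was 0.22 (exact permutation p = 0.143, adjusted 0.143). Without DMSO replicate 4, whose ratio of 1.36 exceeded all RGX-104 ratios, it was 0.37, and without DMSO replicate 3 it was 0.15. The 95% interval of the log2 fold change of Lpcat3, 0.32 to 0.63, lay above those of Lpcat1, Agpat5 and Mboat1 and overlapped those of Agpat3 (0.09 to 0.41), Lpgat1 (0.04 to 0.39), Mboat7 and Mboat2.

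**Figure D3:**
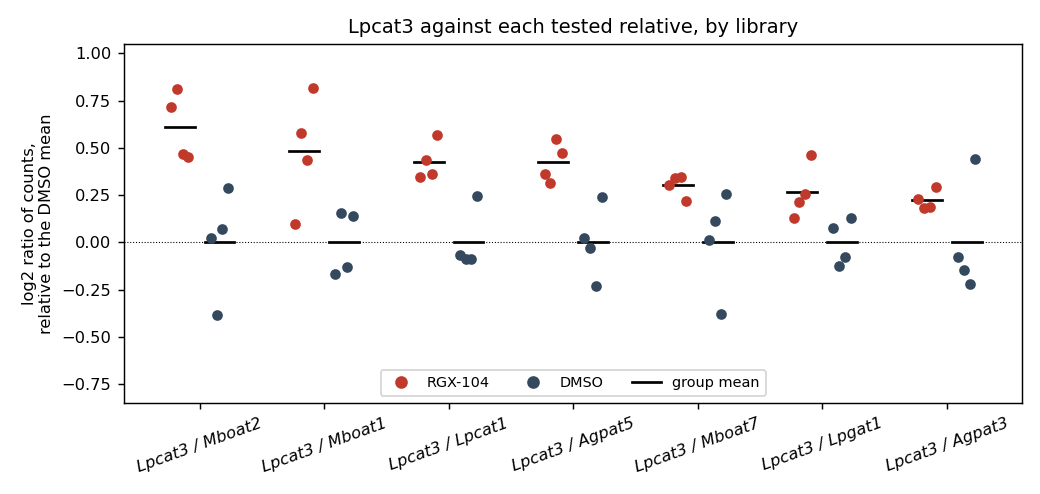
Ratio of Lpcat3 counts to those of each tested relative on the log2 scale, set to 0 at the DMSO mean of each pair, with RGX-104 left of DMSO; points are libraries and lines group means. The mean RGX-104 ratio lies 0.22 (Agpat3) to 0.61 (Mboat2) above the DMSO mean, and DMSO replicate 4 lies above all RGX-104 libraries in the Agpat3 pair.

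Exons of 6 members overlap those of another gene on the opposite strand in GENCODE M21. The strand setting of the counting is unknown, so reads from such stretches could be assigned to either gene. For Lpcat3 the overlap lies at its 3′ end, where 3′ libraries place their reads. There, 334 bp (chromosome 6, 124704085 to 124704418) are shared with Emg1, a ribosome assembly factor. The same stretch is the 3′ end of Emg1. In RefSeq, Lpcat3 ends further inside Emg1, at 124704716, and the overlap by that annotation was not computed. Emg1 was at 298, 286, 299 and 287 CPM in RGX-104 libraries, against 239, 284, 271 and 289.8 CPM in DMSO libraries. Its groups overlapped, and its log2 fold change of 0.11 ± 0.06 did not pass the test (adjusted p = 0.403); it was 0.057 without DMSO replicate 1, the lowest library (adjusted p = 0.732). Lpcat3 had 0.395 to 0.436 reads per Emg1 read in RGX-104 libraries and 0.290 to 0.369 in DMSO libraries, with no overlap. Lpcat3 by itself showed no overlap and Emg1 changed little, so this ratio adds little. Whether shared reads entered either count was not tested. Mboat7 shares 277 bp at its 5′ end with Tsen34, a subunit of the tRNA splicing endonuclease, which was at 22.9 ± 0.876 CPM in RGX-104 and 23.7 ± 1.65 CPM in DMSO libraries (SD, n = 4 each; adjusted p = 0.899). The partners of Agpat5 (Gm35934, 2043 bp) and Agpat3 (Gm40709, 16 bp) are listed at 0 in all libraries, and those of Lpcat2 (Gm45472, 287 bp) and Mboat2 (2900060N12Rik, 107 bp) had 1 read each in all 8 libraries together.

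Lpcat3 was then set against the 7714 other tested genes with a mean of at least 10 CPM, by the root mean square difference of log2 CPM over the 8 libraries after each gene was centred on its own mean. Closest were the CD8 alpha chain gene Cd8a (0.0732), the glycosphingolipid galactosyltransferase gene B4galt5 (0.0824), the polarity gene Scrib (0.0940), the vesicle coat gene Sec24a (0.0952) and Srebf1 (0.0993), the transcription factor of fatty acid synthesis, against a median of 0.289 over all these genes. All these points share the same 8 libraries. Cd8a was at 388, 391, 400.1 and 407 CPM in RGX-104 libraries, against 276, 274, 266 and 289 CPM in DMSO libraries. Like Lpcat3, it was highest among controls in DMSO replicate 4, as were B4galt5, Scrib, Sec24a and Srebf1. A choice by likeness over these same libraries favours that, so it is no further evidence of a link. Of the other members, Lpgat1 (0.176) came closest, at rank 260, followed by Agpat3 (0.218) at rank 991.

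Other genes of phospholipid metabolism were compared as lists. Of all genes tested, edgeR and limma-voom each called 2.66%, and DESeq2 called 4.61% of those it tested. An unadjusted edgeR p under 0.05 was reached by 13.8% of all genes tested, and their median log2 fold change was 0.0028. With shares this low, 0 calls in a short list do not show a lack of change. Of 7 other tested glycerolipid acyltransferases, 0 rose and 0 fell, whether by limma-voom, DESeq2 or edgeR (1 with an unadjusted edgeR p under 0.05, median log2 fold change 0.04). That gene, Gpam, which adds the first fatty acid to glycerol phosphate on mitochondria, was at 20.1 ± 0.204 CPM in RGX-104 and 16.1 ± 1.98 CPM in DMSO libraries (adjusted p = 0.303). Agpat1 is listed at 0 with its symbol repeated in the table, so its level is uncertain. Of 13 tested phospholipases A2 and lysophospholipases, which supply the lysophospholipids, 0 rose and 0 fell with any of these tools, and 4 had an unadjusted p under 0.05 (median -0.08). Lypla1, a lysophospholipase that also removes palmitate from proteins, was at 46.7 ± 5.23 CPM in RGX-104 and 37.7 ± 5.04 CPM in DMSO libraries (adjusted p = 0.184). Of 6 tested acyl-CoA synthetases, which activate the fatty acids, 0 rose and 0 fell with edgeR or limma-voom, and 1 rose with DESeq2 (median 0.03). Acsl4, which prefers arachidonate, was at 191 ± 6.59 CPM in RGX-104 and 165 ± 11.9 CPM in DMSO libraries (log2 fold change 0.21 ± 0.06, adjusted p = 0.0758 with edgeR and 0.0228 with DESeq2). Of 18 tested genes of head group and backbone steps, 0 rose and 0 fell with any of these tools, and 2 had an unadjusted p under 0.05 (median 0.05). Ptdss1, a phosphatidylserine synthase, was at 67.5 ± 5.10 CPM in RGX-104 and 59.3 ± 4.62 CPM in DMSO libraries (adjusted p = 0.338).

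The rest of the MBOAT family included 1 gene that fell. Soat2, which esterifies cholesterol, was at 3.30, 4.94, 4.35 and 3.35 CPM in RGX-104 replicates 5 to 8, against 18.3, 13.1, 14.1 and 8.46 CPM in DMSO replicates 1 to 4. All RGX-104 libraries lay below all DMSO libraries, as they did for 4.32% of all genes tested. The log2 fold change was -1.76 ± 0.24 (adjusted p = 6.90e-05). Soat1, the related and more widely expressed enzyme, was at 55.4 ± 6.68 CPM in RGX-104 and 53.8 ± 6.65 CPM in DMSO libraries (adjusted p = 0.906). Of the 4 tested genes of that list 0 rose and 1 fell, against 0.888% and 1.78% of all genes tested.

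Among 14 tested LXR targets and receptor genes, 9 rose and 0 fell, against 0.888% and 1.78% of all genes tested. The median log2 fold change was 0.57, against 0.0028 over all genes tested. Those that rose were Abca1, Abcg1, Mylip, Srebf1, Arl4c, Scd1, Scd2, Fasn and Acaca. The list was chosen with results of these samples known, so its direction is not independent evidence. Their log2 fold changes ran from 0.39 (Acaca) to 3.39 (Abca1), and the 0.47 of Lpcat3 lay between those of Srebf1 (0.44) and Fasn (0.61). The desaturases Fads1 (0.06, adjusted p = 0.867) and Fads2 (0.02, adjusted p = 0.969) and the elongase Elovl5 (0.09, adjusted p = 0.666), which make the polyunsaturated fatty acids that Lpcat3 uses, did not pass the test. Of the receptors, Nr1h2 (LXR beta) was at 64.9 CPM in RGX-104 and 64.7 CPM in DMSO libraries, and Nr1h3 (LXR alpha) had too few counts for the test (0.545 CPM in RGX-104 and 0.326 CPM in DMSO libraries). The partner gene Rxra was at 9.74 CPM in RGX-104 and 6.71 CPM in DMSO libraries (log2 fold change 0.54 ± 0.27, edgeR adjusted p = 0.374). Rxrb is listed at 0 with its symbol repeated, so its level is uncertain.

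**Figure D4:**
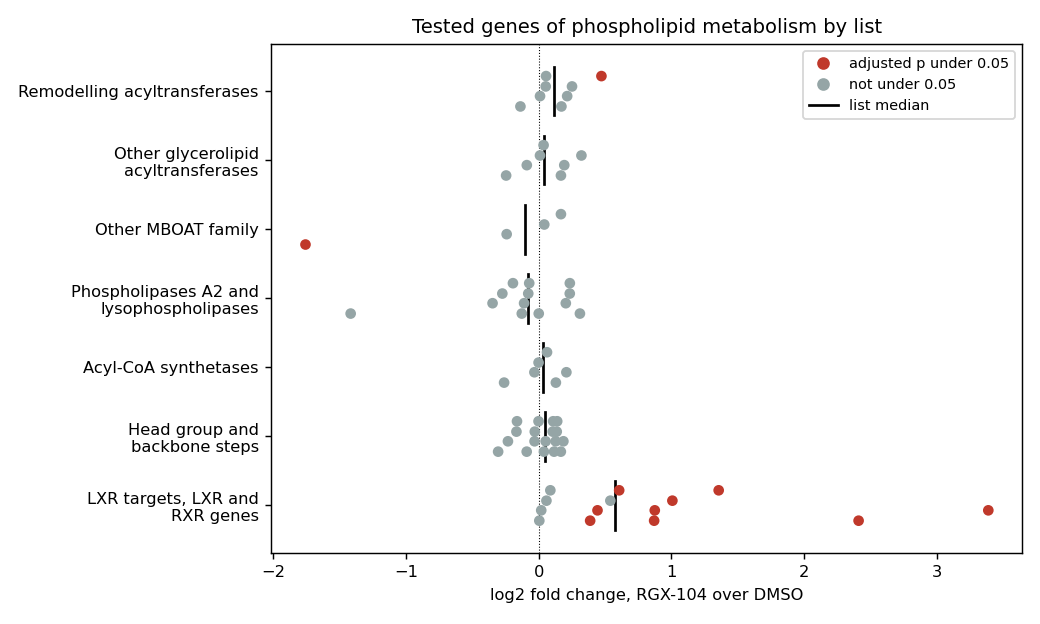
Log2 fold changes, RGX-104 over DMSO, of the tested genes in each list (points; red where the adjusted p was under 0.05) with the list medians (lines). Lpcat3 is the red point of the remodelling acyltransferases and Soat2 (-1.76) that of the other MBOAT genes, and 9 of 14 points of the LXR list are red.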

How the data were processed

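RNA of 8 samples of sorted OT-I CD8+ T cells was sequenced with a Lexogen 3′ FWD kit, per the labels' protocols. The authors deposited 1 table of unnormalised whole-number read counts per gene, and the submitters' processing notes name GRCm38, STAR 2.7.8a, R 4.1.0 and DESeq2 1.4. How reads were assigned to genes, with which strand setting and annotation, and whether molecular identifiers were used is not given in the sources used here. The limit that a count of 0 allows covers counting error only, while SEs and intervals of fold changes rest on the spread between replicates. The table had 0 columns of other samples, and 2339 entries repeat a symbol, none of a member.

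The test was that of edgeR 4.0.16 under R 4.3.3 (filterByExpr, TMM, estimateDisp, glmQLFit, glmQLFTest, group as the only term, all 8 libraries), with Benjamini-Hochberg adjustment over 12162 genes and a threshold of 0.05. CPM use TMM-scaled library sizes. SEs were taken from fold change and F statistic. Ratios were tested with an exact permutation test (SciPy 1.17.1). Alternatives were DESeq2 1.42.0 and its size factors, limma-voom 3.58.1, total count scaling, no filter, repeated entries added to their symbol, 0.5 counts added before ratios, and leaving out each library. Within groups, pairs of libraries had a chi-square per degree of freedom of 6.34 to 9.60, where counting noise gives about 1, so none was a duplicate.

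Of 79 list genes 78 were found, and of 57 marker genes 55. Coordinates are 1-based, from GENCODE M21 and RefSeq GRCm38.p6. Members and lists were chosen with earlier results of these data known. Named were all members, the called genes and the smallest p of each list, genes with exons overlapping a member, and the 5 genes most like Lpcat3. Soat1, Agpat1, Fads1, Fads2, Elovl5, Nr1h2, Nr1h3, Rxra, Rxrb and the marker genes were added after their values were seen.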

Additional observations from a re-analysis of the deposited data

Results flagged for a closer look

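A library stood apart from the other three of its group in 2 of 20 sets of 4 CPM values (10 members in 2 groups), by the ratio of its gap to the range, where chance gives about 1 in 20. RGX-104 replicate 8 held 65.2 CPM of Lpgat1, against 77.2 to 78.6 CPM in the other RGX-104 libraries. DMSO replicate 4 held 75.1 CPM of Agpat3, against 91.5 to 94.8 CPM in the other DMSO libraries.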

How the results depend on the processing

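Lpcat3 kept its direction and its call under all 14 alternatives, with log2 fold changes of 0.42 to 0.55 and adjusted p-values of 3.34e-07 to 0.00458. No other member was called under any of them except Agpat3 with DESeq2, which called 2 members. The adjusted p of Agpat3 ran from 0.0486 to 0.275. Fold changes near 0 moved by over 1.5 times without 1 library in Mboat1, Mboat2, Lpcat1 and Agpat5. That of Mboat1 turned to -0.05 without DMSO replicate 2, -0.0033 without DMSO replicate 3, -0.10 without RGX-104 replicate 5 and -0.012 without RGX-104 replicate 7, over a range of -0.10 to 0.11 without 1 library. Of all genes, 108 were higher and 216 lower, and DESeq2 called 190 higher and 295 lower. Without 1 library, 57 to 93 were higher and 144 to 211 lower, the higher count falling over 1.5 times without DMSO replicates 1 (66), 2 (57) and 3 (58) and RGX-104 replicates 6 (65), 7 (61) and 8 (60), with fewer samples in each fit. The ratios of Lpcat3 to its relatives kept their sign in 63 of 63 alternatives that could change them, with no test where a library was left out, since 3 against 4 libraries cannot reach the threshold. No paired analysis was possible because the groups share no replicate number. Depth limits Lpcat2, Lpcat4 and Mboat2.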

Other observations

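A few further genes of the phospholipid lists, chosen after their values were seen, had groups that did not overlap or an unadjusted p under 0.05 without passing the test by edgeR. Pla2g4a, the cytosolic phospholipase A2 that releases arachidonate, was at 0.720 ± 0.401 CPM in RGX-104 and 1.94 ± 0.748 CPM in DMSO libraries (SD, n = 4 each; log2 fold change -1.42 ± 0.52, adjusted p = 0.197). Pnpla8, a mitochondrial phospholipase, was at 13.9 CPM in RGX-104 and 17.6 CPM in DMSO libraries (adjusted p = 0.318), and Lpin1, a phosphatidic acid phosphatase, at 16.1 CPM in RGX-104 and 19.9 CPM in DMSO libraries (adjusted p = 0.343), with all RGX-104 libraries below all DMSO libraries for both genes, a pattern that 4.32% of tested genes showed. Lypla2, a second lysophospholipase, was at 175 CPM in RGX-104 and 149 CPM in DMSO libraries (adjusted p = 0.206).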
